A study of Mus musculus with 9 samples.

Results

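The 10 genes described here belong to the machinery by which cells sense and answer low oxygen: the hypoxia-inducible factor subunits Epas1, Hif1a and Hif3a, the partner subunit Arnt2, the prolyl hydroxylases Egln1 and Egln3, the ubiquitin ligase subunit Vhl, the growth factor gene Vegfa, and the mitochondrial subunit genes Cox4i2 and Ndufa4l2. They were chosen by name, with earlier results of these data known. Every probe set annotated to exactly 1 of these symbols was taken, which gave 25 of 45101 probe sets and 10 of 18193 genes. Of the 25 probe sets, 18 passed a filter on low signals, and each of the 10 genes kept at least 1. Messenger RNA was measured on 9 Affymetrix mouse arrays, 3 for each stage. The samples were neural crest cells laser-captured from E8.5 embryos at neural tube closure, from dorsal root ganglia at E13.5, and from the adrenal medulla of mice 3 months old (P90). Sex, strain, genotype and the number of animals behind each sample were not given in the sources used here, and no treatment is named. Stage and tissue changed together, so they cannot be told apart in any comparison below. Captured tissue holds several cell types, and in such bulk samples fewer cells of a type and less RNA per cell cannot be told apart.

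In oxygen, EGLN prolyl hydroxylases modify the hypoxia-inducible alpha subunits, VHL then marks these for destruction, and in low oxygen the stabilised alpha subunits pair with ARNT or ARNT2 and switch on genes such as Vegfa and Egln3. Much of this control acts on protein, which arrays of messenger RNA do not measure. Chromaffin cells of the adrenal medulla are neural crest derivatives that release catecholamines, and around birth, before they are innervated, they respond to low oxygen directly. In people, inherited or somatic mutations of VHL, EPAS1 and EGLN1 are found in tumours of chromaffin cells, and in mice Epas1, Cox4i2 and Ndufa4l2 have been named among the genes by which carotid body glomus cells sense oxygen.

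Array signals are printed as deposited, on a linear scale, and are compared only within a probe set. Changes are differences of log2(signal + 16), later stage minus earlier stage, from limma fitted to all genes. Standard errors, printed after ± unless SD is named, share a spread estimated over all stages. A scattered stage thus also widens the comparison that leaves it out. "Rose" and "fell" are used where the Benjamini-Hochberg adjusted p over the 13748 genes tested was under 0.05. The labels call the samples of a stage biological replicates, but since nothing says how many animals they came from, p-values measure the spread between these samples.

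The arrays differed within stages as well as between them. Over all probe sets, arrays of 1 stage correlated with r of 0.874 to 0.985, and arrays of different stages with r of 0.82 to 0.914. The difference between the 3′ and 5′ Actb control probe sets, which grows as RNA is shortened, ran from 0.851 to 7 on the log2 scale, both extremes lying within E13.5 (replicates 1 and 2). Replicate 1 of P90 stood apart from the other P90 arrays. Its summed signal over 9 chromaffin marker genes was 12831.7, against 27709.5 and 26180.4 on replicates 2 and 3. Its signal of Pnmt, the adrenaline-making enzyme, was 633, against 3749.4 and 3288.5. Its sum over 3 of 10 adrenal cortex markers was the highest of all arrays, at 8253.2, against 4825.8 and 4169.7. Only 1 to 2 of those 3 markers were above the filter signal on a P90 array, so this sum rests on very few genes. Changes at P90 against E8.5 are therefore also given without P90 replicate 1 for Epas1, Hif1a, Arnt2, Egln3 and Ndufa4l2. Most other results at P90 are given only with that array.

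Epas1 rose and Egln3 fell at both later stages against E8.5, and Hif1a was lower in the adult medulla than at E8.5, while the other 7 genes were not called in any comparison. Of the 10 genes, 1 rose and 1 fell at E13.5 against E8.5, where 16.5% of all genes were called (9.27% higher and 7.22% lower). In the comparison of P90 with E8.5, 1 rose (Epas1) and 2 fell (Hif1a and Egln3), where 23.3% of all genes were called (10.9% higher and 12.5% lower). Between P90 and E13.5, limma called 0 of the 10, where 9.48% of all genes were called (3.54% higher and 5.94% lower), and 4 had an unadjusted p under 0.05 (Hif1a, Hif3a, Egln3 and Ndufa4l2), as 21.3% of all genes did. In the comparisons of E13.5 and of P90 with E8.5, 3 and 4 of the 10 had such a p, as did 28.4% and 35.5% of all genes. With 10 genes, these counts are too small to be told from the shares of all genes.

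The same held for the 18 probe sets tested. At E13.5 against E8.5, 1 rose and 2 fell, where 15% of all probe sets were called (7.99% higher and 6.98% lower). Comparing P90 with E13.5, 0 were called, where 7.48% of all probe sets were (2.88% higher and 4.6% lower). For P90 against E8.5, 1 rose and 3 fell, where 20.8% were called (9.57% higher and 11.2% lower). The median change of all genes was 0.02 at E13.5 against E8.5, -0.05 between P90 and E13.5, and 0.00 between P90 and E8.5.

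**Figure D1:**
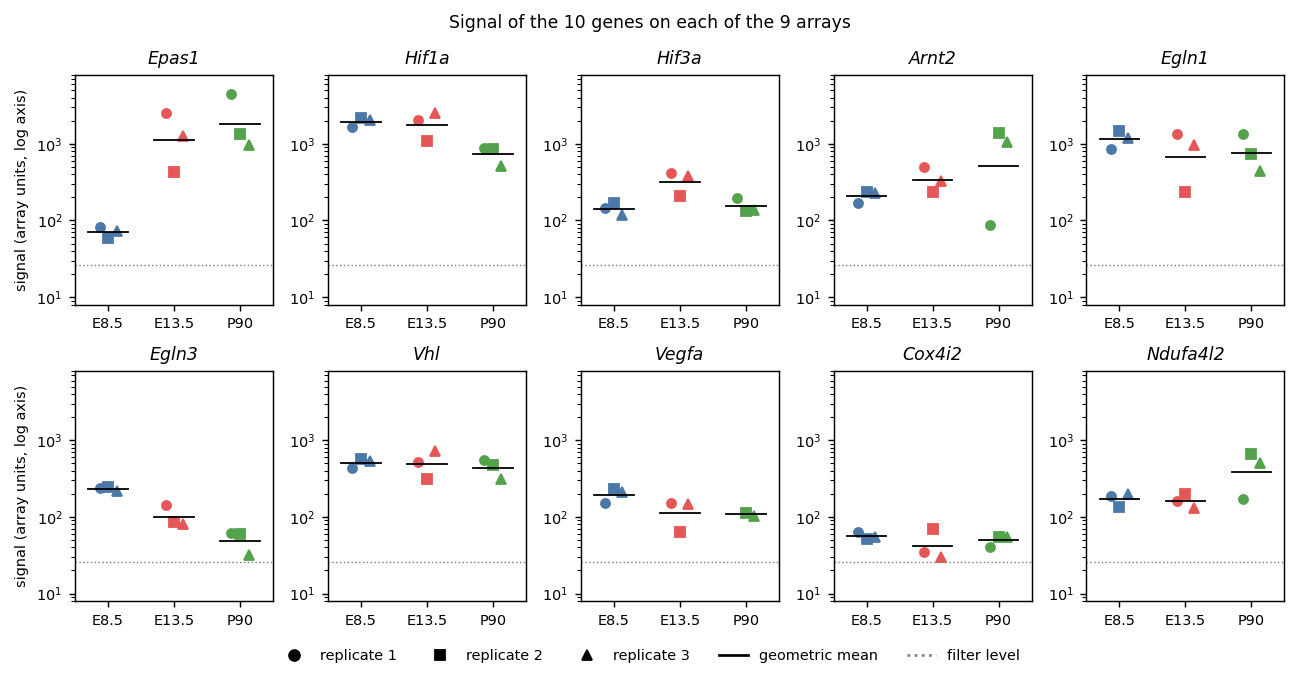
Signal of each of the 10 genes (y axis, log scale, deposited signal units) on each array by stage (x axis), 1 point per array, with the geometric mean of the stage as a bar and the filter signal of 26.1 as a dotted line. The Epas1 arrays of E8.5 lie at 58.9 to 81.3, below every E13.5 and P90 array, whereas the Cox4i2 arrays of the 3 stages overlap.

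Epas1 encodes HIF-2 alpha, the alpha subunit abundant in endothelium and in catecholamine-making cells. Its probe set 1435436_at read 81.3, 58.9 and 72 at E8.5, 2531.1, 431 and 1274.8 at E13.5, and 4489.0, 1358.2 and 962 at P90. All arrays of the later stages lay above all arrays of E8.5, and the E13.5 and P90 arrays overlapped. Epas1 rose by 3.72 ± 0.67 (SE; 13.2-fold) at E13.5 against E8.5 (limma, adjusted p = 0.00277), and by 4.40 ± 0.67 (21.1-fold) at P90 against E8.5 (adjusted p = 0.000725). Between P90 and E13.5 the difference was 0.68, with a 95% interval from -0.95 to 2.31 and an adjusted p of 0.641. The E8.5 arrays averaged 70.7 ± 11.3, the E13.5 arrays 1412.4 ± 1056.6 and the P90 arrays 2269.7 ± 1932.1 (SD, n = 3 each), so the spread between arrays was far wider in the later stages. Without P90 replicate 1, the array with the highest Epas1 signal, the change at P90 against E8.5 was 3.75 (adjusted p = 0.000994). The second Epas1 probe set, 1449888_at, stayed between 5.72 and 37.4 on all arrays, did not pass the filter and was not tested.

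The Epas1 signal was highest on P90 replicate 1 and E13.5 replicate 1. On those arrays Kdr, a receptor for VEGF on endothelial cells, also had its highest signals. Kdr read 59, 207 and 268 at E8.5, 1021.9, 89.6 and 291 at E13.5, and 2728.3, 123 and 180 at P90, with no call in any comparison. Summed over the 12 of 14 endothelial markers with a value on every array, which do not include Kdr, the signal was 934, 1085.2 and 1903.6 at E8.5, 2670.5, 2448.5 and 2901.8 at E13.5, and 3824.8, 2018.9 and 1868.1 at P90. The highest P90 sum was on replicate 1, as for Epas1, but the highest E13.5 sum was on replicate 3. All E13.5 sums lay above all E8.5 arrays, and the P90 range overlapped the E8.5 range. Of 13 endothelial markers tested, 3 rose and 0 fell both at E13.5 and at P90 against E8.5, where 16.5% and 23.3% of all genes were called. The marker counts were not tested against these shares. The adrenal cortex sum over 3 of 10 markers was 101, 206 and 203 at E8.5, 1151.0, 207 and 487 at E13.5, and 8253.2, 4825.8 and 4169.7 at P90. The pericyte sum over 9 of 10 markers ran from 1774.1 to 2184.4 at E8.5, 1624.2 to 2973.8 at E13.5 and 1696.2 to 3957.6 at P90. The Actb difference between 3′ and 5′ probe sets was 4.82, 2.05 and 2.39 at E8.5, 0.851, 7 and 2.87 at E13.5, and 1.36, 4.09 and 3.51 at P90, so both arrays with high Epas1 had the smallest difference of their stage. With the array of the largest Actb difference left out of each stage, Epas1 changed by 4.48 at E13.5 and by 4.69 at P90, both against E8.5 (adjusted p of 0.00979 and 0.00739). The part of these cell types and of RNA quality in the Epas1 levels was not tested.

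**Figure D2:**
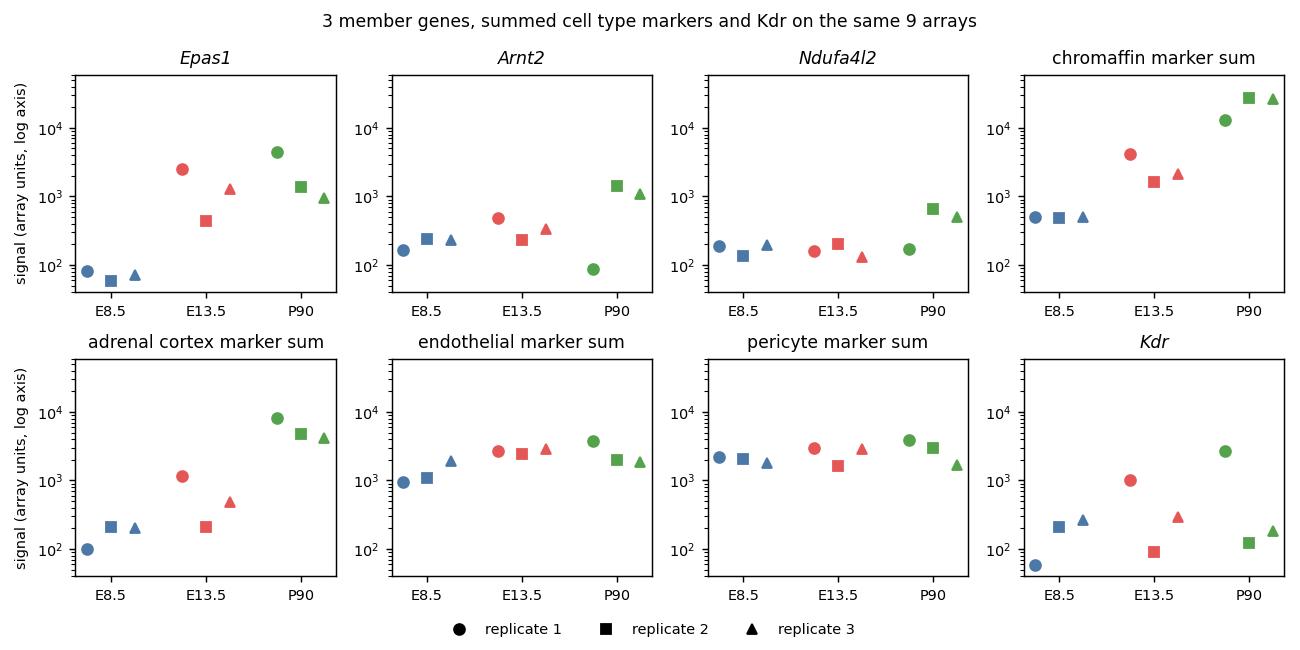
Signals of Epas1, Arnt2, Ndufa4l2 and Kdr and summed signals of chromaffin, adrenal cortex, endothelial and pericyte markers (y axis, log scale, deposited signal units) on each of the 9 arrays by stage (x axis), with marker shape giving the replicate number. P90 replicate 1 has the lowest chromaffin sum of its stage, 12831.7, and the highest adrenal cortex sum, 8253.2, the latter over 3 of 10 markers.

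Hif1a encodes HIF-1 alpha, the alpha subunit found in most cells, which drives genes of glycolysis. Its brightest probe set, 1427418_a_at, read 1640.8, 2141.9 and 2020.1 at E8.5, 2012.4, 1097.1 and 2482.6 at E13.5, and 879, 850 and 510 at P90. All P90 arrays lay below all arrays of either earlier stage, and the E8.5 and E13.5 arrays overlapped. Hif1a fell by 1.39 ± 0.40 on the log2 scale at P90 against E8.5 (2.61-fold lower; limma, adjusted p = 0.0262). At P90 against E13.5 the difference was -1.26 ± 0.40 (adjusted p = 0.0743), and at E13.5 against E8.5 it was -0.12 (95% interval -1.10 to 0.85). The call at P90 against E8.5 ended without E8.5 replicate 1, 2 or 3 (adjusted p of 0.0534, 0.106 and 0.0883) and without P90 replicate 2 or 3 (0.0591 and 0.0905). It held without P90 replicate 1 (-1.52, adjusted p = 0.0221). Without E13.5 replicate 2, the array with the largest Actb difference, the change at P90 against E13.5 was -1.60 (adjusted p = 0.0147). The second tested probe set, 1416035_at, read 331 to 551 at E8.5, 232 to 810 at E13.5 and 158 to 202 at P90. Its change at P90 against E8.5 was -1.27 (adjusted p = 0.0742 over all probe sets tested). The remaining Hif1a probe sets, 1431981_at and 1448183_a_at, did not pass the filter.

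Hif3a encodes the third alpha subunit, several splice forms of which oppose the others. Probe set 1425428_at read 144, 170 and 119 at E8.5, 417, 208 and 379 at E13.5, and 194, 132 and 138 at P90. All E13.5 arrays were above all arrays of both other stages. The difference was 1.08 ± 0.35 at E13.5 against E8.5 (adjusted p = 0.0577) and -1.0 ± 0.35 at P90 against E13.5 (adjusted p = 0.113), so neither was called. Between P90 and E8.5 it was 0.09 (95% interval -0.78 to 0.95). Without E13.5 replicate 2, both differences with E13.5 passed the threshold, at 1.38 (adjusted p = 0.0144) against E8.5 and -1.29 (adjusted p = 0.0258) at P90. Without P90 replicate 1, the adjusted p at E13.5 against E8.5 was 0.044. The further Hif3a probe sets disagreed with it. Probe set 1446708_at also differed by 1.08 at E13.5 against E8.5 (adjusted p = 0.0608), with 1 E13.5 cell empty, but 1421572_at, 1425429_s_at and 1459052_at differed by -0.21, -0.46 and -0.24.

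Arnt2 encodes a partner subunit used mainly in neural tissue. Probe set 1434028_at read 167, 238 and 229 at E8.5, 492, 233 and 331 at E13.5, and 87.7, 1399.1 and 1069.9 at P90. The P90 stage thus held both the lowest and the highest array, the low one being replicate 1. No comparison was called: E13.5 differed from E8.5 by 0.65 ± 0.80, P90 from E13.5 by 0.62 ± 0.80 and P90 from E8.5 by 1.27 ± 0.80 (adjusted p of 0.663, 0.737 and 0.284). The standard error at E13.5 against E8.5 includes the spread of the P90 arrays. With only the arrays compared, that change was 0.65 ± 0.38 (limma, adjusted p = 0.309). Without P90 replicate 1, the P90 change was 1.81 (adjusted p = 0.0171) against E13.5 and 2.46 (adjusted p = 0.00135) against E8.5. Without P90 replicate 2, the change against E13.5 was -0.07. The dimmer probe set 1420669_at was not called in any comparison. Arnt, the widely used partner, read 585 to 1049.9 at E8.5, 502 to 786 at E13.5 and 560 to 1411.3 at P90, with overlapping stages and no call.

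**Figure D3:**
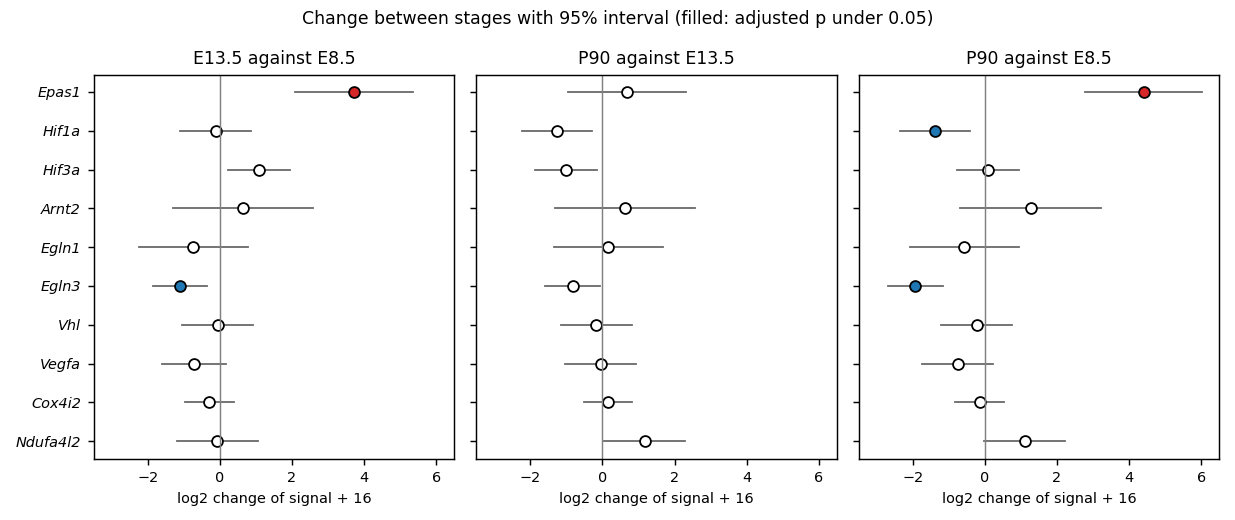
Change of each of the 10 genes (x axis, difference of log2(signal + 16), later minus earlier stage) in the 3 comparisons, with 95% intervals. The intervals use limma's standard errors with only the residual degrees of freedom of the full set of arrays, and are wider than the limma p-values imply. For Ndufa4l2 at P90 against E8.5 the interval ran from -0.02 to 2.23, although limma gave an unadjusted p of 0.0344. Filled points passed an adjusted p of 0.05: Epas1 at 3.72 and 4.40, Egln3 at -1.10 and -1.93, and Hif1a at -1.39.

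Egln3 encodes a prolyl hydroxylase whose gene is itself induced by hypoxia-inducible factors and which promotes apoptosis of sympathetic neurons deprived of nerve growth factor. Probe set 1418649_at read 241, 242 and 216 at E8.5, 142, 84.6 and 81.4 at E13.5, and 60.7, 59 and 32.2 at P90. The stages did not overlap, and each later stage lay below the one before it. Egln3 fell by 1.10 ± 0.31 at E13.5 against E8.5 (2.15-fold lower; limma, adjusted p = 0.0304) and by 1.93 ± 0.31 at P90 against E8.5 (3.81-fold lower; adjusted p = 0.00105). At P90 against E13.5 the difference was -0.83 ± 0.31 (adjusted p = 0.138). The call at P90 against E8.5 held without P90 replicate 1 (-2.05, adjusted p = 0.0012). The call at E13.5 against E8.5 ended without E8.5 replicate 1, 2 or 3 (adjusted p of 0.0717, 0.102 and 0.0738) and without E13.5 replicate 2 or 3 (0.065 and 0.121). The second probe set, 1418648_at, read 46.1, 90.1 and 91.7 at E8.5, 33.1, 9.97 and 24.8 at E13.5, and 12.1, 4.8 and 7.63 at P90. All arrays of the later stages lay below all E8.5 arrays here too, and the E13.5 and P90 arrays overlapped. On E13.5 replicates 2 and 3 and all P90 arrays it lay below the filter signal. Probe set 1418648_at thus passed the filter through its E8.5 arrays, so no test of it is given. The probe set counts above include it as fallen at both later stages against E8.5.

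Egln1 encodes the main hydroxylase of the alpha subunits in oxygen. Probe set 1423785_at read 854, 1465.3 and 1189.0 at E8.5, 1353.0, 233 and 952 at E13.5, and 1329.6, 727 and 444 at P90. The stages overlapped, with the low E13.5 value on replicate 2. The change at P90 against E8.5 was -0.58 (95% interval -2.09 to 0.93), and no comparison was called. The dimmer probe set 1451110_at read 92.1, 167 and 134 at E8.5, 118, 36 and 47.4 at E13.5, and 65.5, 45 and 41.2 at P90. All its P90 arrays lay below all its E8.5 arrays, with a difference of -1.13 ± 0.38 that was not called (adjusted p = 0.0546). Egln2, the third hydroxylase of the family, read 1091.4 to 2010.4 at E8.5, 803 to 2324.2 at E13.5 and 916 to 2317.8 at P90. Hif1an, the asparagine hydroxylase that blocks coactivator binding, read 310 to 457, 341 to 593 and 319 to 404 at the same stages. The stages overlapped in both genes, and neither was called.

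Vhl encodes the substrate-recognition subunit of the ubiquitin ligase. Probe set 1434708_at read 439, 560 and 538 at E8.5, 514, 313 and 721 at E13.5, and 550, 474 and 308 at P90. The stages overlapped, with means of 512 ± 64.6, 516 ± 204 and 444 ± 124 (SD, n = 3 each). The change was -0.06 at E13.5 against E8.5 (95% interval -1.04 to 0.92) and -0.23 at P90 against E8.5 (95% interval -1.21 to 0.75). These intervals reach about 1 log2 unit either way. The other probe set, 1421071_at, did not pass the filter.

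The promoters of the called genes are shown where the RefSeq promoter table (GRCm38.p6) held an entry, to set the core of the hypoxia response element beside the genes that moved. The letters searched were ACGTG and GCGTG on both strands, in the 250 bases before each gene's start, and capitals mark the matches. Of the 10 genes, 7 had an entry and together 8 windows, 5 of which held a match. Over all 32851 windows of 27025 genes, 38.6% held either motif, 16.6% ACGTG and 28.2% GCGTG. Egln3 (chr12:54203875-54204124, minus strand) held 1 ACGTG, and Hif1a (chr12:73907617-73907866, plus strand) held 3, of which those on opposite strands of CACGTG overlap. A match of this length is a description of the letters and not a site of binding.
Egln3: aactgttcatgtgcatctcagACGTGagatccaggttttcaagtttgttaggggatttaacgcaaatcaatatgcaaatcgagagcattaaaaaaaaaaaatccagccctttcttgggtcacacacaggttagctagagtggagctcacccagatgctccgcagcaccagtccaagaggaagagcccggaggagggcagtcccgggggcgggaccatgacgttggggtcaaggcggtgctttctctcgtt
Hif1a: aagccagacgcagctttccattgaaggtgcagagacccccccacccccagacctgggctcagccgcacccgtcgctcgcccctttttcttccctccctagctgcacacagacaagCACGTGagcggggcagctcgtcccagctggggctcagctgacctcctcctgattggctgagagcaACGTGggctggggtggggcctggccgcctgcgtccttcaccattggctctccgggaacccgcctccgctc

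Vegfa encodes the secreted growth factor that draws vessels into tissue short of oxygen. Probe set 1420909_at read 152, 229 and 212 at E8.5, 150, 63.5 and 146 at E13.5, and 113 and 104 on the P90 arrays with a value, the cell of P90 replicate 1 being empty. All arrays of both later stages lay below all E8.5 arrays, and E13.5 and P90 overlapped. The differences were -0.71 ± 0.36 at E13.5 and -0.76 ± 0.41 at P90, both against E8.5 (adjusted p of 0.236 and 0.21), and neither was called. The other probe set, 1451959_a_at, did not pass the filter.

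Ndufa4l2 encodes a mitochondrial protein induced in low oxygen that lowers the activity of respiratory complex I. Probe set 1434905_at read 189, 134 and 196 at E8.5, 162, 200 and 132 at E13.5, and 170, 663 and 498 at P90. Replicates 2 and 3 of P90 lay above every other array, while P90 replicate 1 lay among the earlier stages. P90 differed from E13.5 by 1.17 ± 0.46 and from E8.5 by 1.11 ± 0.46 (adjusted p of 0.161 and 0.108), and neither was called. Without P90 replicate 1 both passed, at 1.73 (adjusted p = 0.0103) and 1.66 (adjusted p = 0.00614). On that replicate the chromaffin enzymes Dbh and Pnmt, chosen with their values known, were also lower than on the other P90 arrays. Dbh, the noradrenaline-making enzyme, read 305, 2172.2 and 2072.0 on the P90 arrays. The part of chromaffin content in the Arnt2 and Ndufa4l2 values was not tested. Ndufa4, the widely expressed relative, read 1249.9 to 2062.5 at E8.5, 744 to 3686.2 at E13.5 and 610 to 3734.3 at P90 and was not called.

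Cox4i2 encodes the low-oxygen isoform of subunit 4 of cytochrome c oxidase. Probe set 1421373_at read 63.4, 50.8 and 55.1 at E8.5, 34.9, 70.1 and 30.2 at E13.5, and 40.3, 54.4 and 54.6 at P90. The stages overlapped at means of 56.4 ± 6.42, 45.1 ± 21.8 and 49.8 ± 8.17 (SD, n = 3 each). All arrays, at 30.2 to 70.1, lay not far above the filter signal of 26.1, and Cox4i2 did not pass the stricter alternative filter. At such low signals, the values cannot show that Cox4i2 was unchanged. No P90 array reached the highest E8.5 array, and the change at P90 against E8.5 was -0.14 (95% interval -0.82 to 0.53), against 0.16 (95% interval -0.52 to 0.83) at P90 against E13.5. Cox4i1, the isoform used in most cells, read 2536.0 to 2699.1 at E8.5, 1102.2 to 5009.1 at E13.5 and 1395.0 to 4164.7 at P90, and was not called.

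The other genes of the pathway were counted from 6 lists. Over all genes, 16.5% were called at E13.5 against E8.5, 9.48% at P90 against E13.5 and 23.3% at P90 against E8.5. No list count was tested against these shares. The first list holds genes that modify, degrade, partner or coregulate the alpha subunits. Of 14 tested, 2 rose and 0 fell at E13.5 against E8.5, 0 were called between P90 and E13.5, and 3 rose and 0 fell at P90 against E8.5. Their median changes in that order were 0.09, -0.11 and -0.14. By limma, the count between P90 and E13.5 was 1 without E13.5 replicate 2. P4htm, a membrane-bound prolyl hydroxylase, read 170, 43.3 and 48.7 at E8.5, 1246.9, 455 and 693 at E13.5, and 118, 854 and 553 at P90. It rose by 3.07 at E13.5 (adjusted p = 0.0104) and by 2.18 at P90 (adjusted p = 0.0407), both against E8.5, although P90 replicate 1 overlapped E8.5. The second of these calls ended under 9 of 22 alternatives, with adjusted p of 0.0531 to 0.16, and the first without E8.5 replicate 2 (0.055). Usp20, a deubiquitinase acting on HIF-1 alpha, rose by 1.99 and 1.86 in the same comparisons (adjusted p of 0.0285 and 0.029), and each call ended under 7 of 22 alternatives. With the mean of its probe sets the Usp20 changes were 1.24 and 1.08 (adjusted p of 0.0611 and 0.0786). Os9, which binds EGLN and HIF-1 alpha, rose by 1.75 at P90 against E8.5 (adjusted p = 0.013), a call that ended without E8.5 replicate 2 (0.072) or 3 (0.0553). These counts were carried by few arrays: they were 0 at E13.5 against E8.5 without E8.5 replicate 2, and 0 at P90 against E8.5 without E8.5 replicate 2 or 3. They were 1 at E13.5 against E8.5 when E8.5 replicate 3, E13.5 replicate 1 or E13.5 replicate 3 was left out, and 1 at P90 against E8.5 without P90 replicate 2 or 3, or with the arrays of largest Actb difference left out.

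Among 7 tested relatives with the same bHLH-PAS fold, 1 rose and 0 fell at E13.5 against E8.5 (median change 0.57), 1 rose and 2 fell between P90 and E13.5 (0.17), and 2 rose and 1 fell between P90 and E8.5 (0.28). The count of 3 between P90 and E13.5 was 1 without E13.5 replicate 3, and the count of 3 between P90 and E8.5 was 1 with the arrays of largest Actb difference left out. Npas3, a factor of neural tissue, read 90.6, 108 and 184 at E8.5, 141, 152 and 287 at E13.5, and 16, 7.48 and 9.06 at P90. It fell by 2.91 at P90 against E13.5 (adjusted p = 0.000345) and by 2.38 at P90 against E8.5 (adjusted p = 0.000494), with no overlap of P90 with either earlier stage, all P90 arrays being below the filter signal. Ahr, the aryl hydrocarbon receptor, read 22.8 to 78.1 at E8.5, 304 and 899 on the 2 E13.5 arrays with a value, and 36.7 to 83.7 at P90. It rose by 3.05 at E13.5 against E8.5 (adjusted p = 0.00313) and fell by 2.77 at P90 against E13.5 (adjusted p = 0.00825). The second of these calls ended without E13.5 replicate 3 (adjusted p = 0.099). The clock genes Npas2 and Clock rose by 2.44 and 1.44 at P90 against E8.5, where all E8.5 arrays of Npas2 were below the filter signal. Npas2 also rose by 1.69 between P90 and E13.5 (adjusted p = 0.0332), a call that ended without any 1 of 7 arrays, with adjusted p up to 0.164 without E13.5 replicate 3.

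Several genes of glycolysis that hypoxia induces fell after E8.5. Of 15 tested, 2 rose and 4 fell at E13.5 against E8.5, 1 rose and 0 fell at P90 against E13.5, and 0 rose and 5 fell at P90 against E8.5. The medians were -0.93, -0.13 and -1.35. Slc2a1, the glucose transporter GLUT1, read 5987.4, 5536.7 and 5812.3 at E8.5, 384, 868 and 1079.9 at E13.5, and 451, 910 and 604 at P90. It fell by 2.99 at E13.5 (adjusted p = 0.000792) and by 3.17 at P90 (adjusted p = 0.000355), both against E8.5. Hk2, an inducible hexokinase, had a mean signal of 3686.5 ± 1372.3 on the E8.5 arrays, 133 ± 67.1 on the E13.5 arrays and 1416.4 ± 1191.7 on the P90 arrays (SD, n = 3 each). Its P90 signals were 2787.1, 836 and 626, the highest being that of replicate 1. It fell by 4.66 at E13.5 against E8.5 (adjusted p = 0.000319) and rose by 3.05 at P90 against E13.5 (adjusted p = 0.00584). Comparing P90 with E8.5, Pdk1, which keeps pyruvate from the mitochondrion, fell by 3.05, and Ldha, which makes lactate, fell by 2.72. Pfkl, the liver phosphofructokinase, fell by 2.97 at E13.5 against E8.5. The count of 5 called at P90 against E8.5 was 9 without P90 replicate 1 and 10 without E13.5 replicate 2, and the count of 1 at P90 against E13.5 was 4 without E13.5 replicate 2. After quantile normalization the counts were 11 at E13.5 against E8.5 (2 higher and 9 lower) and 11 at P90 against E8.5 (2 higher and 9 lower), and with only the arrays compared the P90 count was 9 (1 higher and 8 lower).

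**Figure D4:**
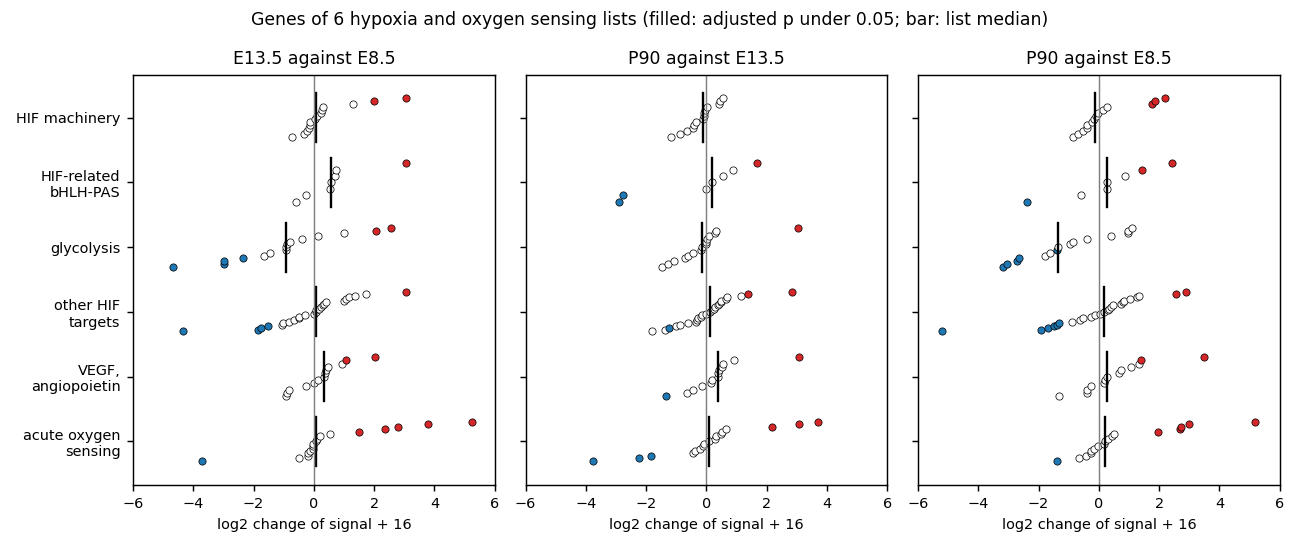
Changes of the tested genes of the 6 lists (x axis, difference of log2(signal + 16), later minus earlier stage) in the 3 comparisons, 1 point per gene, filled where the adjusted p was under 0.05, with the list median. The glycolysis list has the lowest medians, -0.93 at E13.5 and -1.35 at P90, both against E8.5.

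Of 25 tested genes of other hypoxia-inducible factor targets, 1 rose and 4 fell at E13.5 against E8.5, 2 rose and 1 fell at P90 against E13.5, and 2 rose and 6 fell at P90 against E8.5. The medians were 0.07, 0.12 and 0.18. Ak4, a mitochondrial adenylate kinase, read 1815.2 and 1746.2 on the E8.5 arrays with a value, 127, 42.3 and 68 at E13.5, and 35.7, 32.9 and 29.1 at P90. It fell by 4.34 at E13.5 (adjusted p = 0.000106) and by 5.21 at P90 (adjusted p = 1.12e-05), both against E8.5. Ccnd1, a cyclin of the G1 phase, fell by 1.87 at E13.5 against E8.5. Adm, the vasodilator peptide adrenomedullin, read 2.61 to 7.43 at E8.5, 5.07 to 7.79 at E13.5, and 31, 269 and 282 at P90. Its lowest P90 array was replicate 1. Adm passed the filter through the P90 arrays alone, so no test of it is given, although the counts above include it as higher at P90. Tgfa, a ligand of the epidermal growth factor receptor, rose by 2.55 at P90 against E8.5 (adjusted p = 0.000681), but its probe sets disagreed. With the mean of its probe sets the change was 0.81 (adjusted p = 0.0209), and with a pseudocount of 1 another probe set stood for it and gave -0.81 (adjusted p = 0.111). Lox, a collagen cross-linking enzyme, rose by 3.07 at E13.5 against E8.5 (adjusted p = 0.0135), a call that ended without E8.5 replicate 2 (adjusted p = 0.0517) or E13.5 replicate 3 (0.0554). Between P90 and E13.5 the count of 3 became 1 without any 1 of E8.5 replicates 1 to 3, E13.5 replicate 1, or P90 replicates 1 and 2. Between P90 and E8.5 the count of 8 became 5 when E8.5 replicate 2, E8.5 replicate 3 or P90 replicate 2 was left out. With the arrays of largest Actb difference left out, the counts of 3 and 8 were 1 and 4. At E13.5 against E8.5 the count of 5 was 9 after quantile normalization and 8 with the mean of probe sets.

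Of 13 tested VEGF and angiopoietin ligands and receptors, 2 rose at E13.5 against E8.5, 1 rose and 1 fell at P90 against E13.5, and 2 rose at P90 against E8.5, with medians of 0.35, 0.38 and 0.26. Vegfd, a ligand of lymphatic vessels, read 1.9 to 6.25 at E8.5, 4 to 17.8 at E13.5, and 512, 192 and 92.2 at P90. Vegfd too passed the filter through the P90 arrays alone, so no test of it is given, and it is 1 of the genes counted as higher at P90 in both comparisons. Nrp1, a coreceptor of VEGF and semaphorins, rose by 2.03 at E13.5 against E8.5 (adjusted p = 0.00487) and by 1.38 at P90 against E8.5 (adjusted p = 0.0274). The second Nrp1 call ended when E8.5 replicate 2, E8.5 replicate 3, P90 replicate 1 or P90 replicate 2 was left out (adjusted p of 0.119, 0.0937, 0.0635 and 0.0756). Pgf, placental growth factor, rose by 1.06 at E13.5 against E8.5 (adjusted p = 0.0218) and fell by 1.33 at P90 against E13.5 (adjusted p = 0.0101). The rise was lost when E8.5 replicate 2, E8.5 replicate 3, E13.5 replicate 1 or E13.5 replicate 3 was left out (adjusted p of 0.0808, 0.0924, 0.0575 and 0.0925), and the fall without E13.5 replicate 3 (adjusted p = 0.0591). The count of 2 at E13.5 against E8.5 was then 1 when E8.5 replicate 2, E8.5 replicate 3 or E13.5 replicate 3 was left out. Between P90 and E8.5 it was 1 when E8.5 replicate 2, E8.5 replicate 3, P90 replicate 1 or P90 replicate 2 was left out, and 4 without E13.5 replicate 1.

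The genes named for acute oxygen sensing in glomus and chromaffin cells, many of them ion channels, moved in both directions. Of 17 tested, 5 rose and 1 fell at E13.5 against E8.5, 3 rose and 3 fell at P90 against E13.5, and 5 rose and 1 fell at P90 against E8.5, with medians of 0.06, 0.08 and 0.20. Kcnk3, the acid-sensitive potassium channel TASK-1, read 14.7, 3.94 and 1 at E8.5, 52.5, 53.8 and 32.3 at E13.5, and 962 and 628 on the P90 arrays with a value, replicate 1 being empty. It rose by 3.69 at P90 against E13.5 (adjusted p = 0.000164) and by 5.18 at P90 against E8.5 (adjusted p = 6.27e-06), all its E8.5 arrays being below the filter signal. Kcnmb2, a beta subunit of the large-conductance calcium-activated potassium channel, read 31.7 to 40.1 at E8.5, 1072.0 to 2856.2 at E13.5 and 124 to 801 at P90. It rose by 5.24 at E13.5 (adjusted p = 0.00026) and by 3.00 at P90 (adjusted p = 0.00466), both against E8.5. Kcnma1, the pore subunit of that channel, rose by 2.71 at P90 against E8.5. Its E8.5 signals of 10.5, 19.7 and 26.8 were near or below the filter signal. Kcnmb4, another subunit of the channel, fell by 3.76 at P90 against E13.5. At E13.5 it read 728 and 1288.4 on the arrays with a value, replicate 1 being empty. Cacna1h, a T-type calcium channel, rose by 3.80 at E13.5 against E8.5, where its E8.5 arrays were all below the filter signal. Cth, which makes the gas hydrogen sulphide, read 255, 460 and 375 at E8.5, 11.3, 14.2 and 10.7 at E13.5, and 205, 301 and 170 at P90, with all E13.5 arrays below the filter signal. It fell by 3.72 at E13.5 against E8.5 (adjusted p = 6.43e-05) and rose by 3.07 at P90 against E13.5 (adjusted p = 0.00017). The count of 6 called at P90 against E13.5 was 3 without E13.5 replicate 3, with only the arrays compared, or with the arrays of largest Actb difference left out.

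Markers of other cell types of the ganglion and the adrenal medulla also differed between the stages. Of 6 sensory neuron markers tested, 5 rose and 0 fell at E13.5 against E8.5, and 0 rose and 2 fell at P90 against E13.5. Their summed signal, over 6 of 9 markers, was 397, 234 and 320 at E8.5, 7310.4, 4882.9 and 6757.1 at E13.5, and 408, 3143.0 and 2173.8 at P90. All 6 were above the filter signal on each E13.5 array. On an E8.5 array 2 to 4 were, and on a P90 array 4. Some may thus have passed the filter through the E13.5 arrays alone, so these calls are given as description only. Of 7 Schwann cell and satellite glia markers tested, 4 rose at E13.5 against E8.5 and 3 fell at P90 against E13.5. Their sums, over 7 of 8 markers, were 852, 1278.8 and 1507.0 at E8.5, 9204.8, 2614.7 and 5110.5 at E13.5, and 2366.4, 2811.3 and 2075.7 at P90. Of 9 chromaffin markers tested, 7 rose at P90 against E13.5 and 9 at P90 against E8.5. Over all genes, 16.5% were called at E13.5 against E8.5, 9.48% at P90 against E13.5 and 23.3% at P90 against E8.5. The part of these cell types in the changes of the channel genes was not tested.

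The genes whose pattern was most like those of Epas1, Cox4i2 and Ndufa4l2 were found by the root mean square difference of centred log2 values over the 9 arrays, among 11972 genes. For Epas1 these were Mtus1, Emc9 and Gas6, at 0.30, 0.37 and 0.38 log2 units. Like Epas1, Mtus1 read 26.8 to 29.2 at E8.5, 150 to 812 at E13.5 and 332 to 1588.8 at P90, with its highest E13.5 and P90 signals on replicate 1 of each stage. For Ndufa4l2 the nearest were Dydc2, Ky and Lmo1, at 0.23, 0.23 and 0.25, and for Cox4i2 they were Cyp2d34, Dnajc25 and Mef2b, each at 0.12. Lmo1, which encodes a LIM-only transcriptional cofactor, read 77.3 to 127 at E8.5, 119 to 145 at E13.5, and 83.2, 332 and 302 at P90, where replicate 1 was again low. The genes nearest to Cox4i2 were about as flat as Cox4i2 itself, and none was called. All these genes were selected for likeness over the same arrays, so shared flatness and shared high or low arrays follow from the selection.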

How the data were processed

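The values deposited by the authors are linear intensity values, 1 for each probe set on each array. The submitters' processing notes name MAS5, GCOS, RMA and GCRMA. Which of them made the values, and how arrays were scaled, is not given in the sources used here. Of 405909 cells, 8048 (1.98%) were empty. Per the labels, RNA was isolated with a PicoPure kit and labelled as biotin cRNA from 400 ng. Median signals were 38.3 to 48.2 per array, and the number of arrays limits the precision.

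Platform annotation gave 1 symbol to 34945 probe sets, several to 932 and none to 9160, beside 64 controls. RefSeq gene identifiers matched 34741 of the first kind and altered 0 symbols. Values were analysed as log2(signal + 16) with no rescaling, which shrinks the fold changes of dim genes. Probe sets were tested if 3 or more of the 9 arrays exceeded the 40th percentile of all values (26.1) and each stage had 2 or more values. The brightest of 24013 such probe sets stood for each of 13748 genes. The stages were compared in limma 3.58.1 (R 4.3.3; lmFit, eBayes with a trend, 6 residual degrees of freedom, two-sided), with Benjamini-Hochberg adjustment. The fit was also run on simulated data with the same spread in every stage. Genes such as Epas1 had unequal spread between stages, so that run does not show how the p-values behave for them. A second fit covered all 24013 probe sets. The printed intervals use limma's standard errors with only the residual degrees of freedom of the full set of arrays. The limma p-values rest on more degrees of freedom, so the intervals are wider than those p-values imply.

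Members and gene lists were chosen with earlier results of these data known. Outside the members and their relatives Arnt, Egln2, Hif1an, Cox4i1 and Ndufa4, the genes named were up to 3 called genes of largest change per list and comparison, and the 3 nearest in pattern to Epas1, Cox4i2 and Ndufa4l2. Kdr, Dbh and Pnmt were chosen with their values known. The alternatives comprised quantile normalization, other pseudocounts, filters, variance models and probe set choices, a replicate block, and leaving out arrays.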

Additional observations from a re-analysis of the deposited data

How the results depend on the processing

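Under the 22 alternatives, Epas1 remained called at E13.5 against E8.5 (3.14 to 4.48, adjusted p of 0.000294 to 0.0168) and at P90 against E8.5 (3.75 to 4.85, 2.76e-05 to 0.00739), and Egln3 at P90 against E8.5 (-2.23 to -1.38, 0.000391 to 0.014). The count of 2 genes at E13.5 against E8.5 was 1 with the array of largest Actb difference left out of each stage, and 1 to 3 with single arrays left out. The count of 0 at P90 against E13.5 was 2 after quantile normalization (Hif1a at -1.11 and Hif3a at -0.97), and 0 to 2 with single arrays left out. The count of 3 at P90 against E8.5 was 2 to 5 with single arrays left out. Hif3a also passed at E13.5 against E8.5 after quantile normalization (1.0, adjusted p = 0.0279), with a filter at the 60th percentile (0.0487) and without a variance trend (0.0461). With the arrays of largest Actb difference left out, Egln3 at E13.5 against E8.5 (-0.98, adjusted p = 0.154) and Hif1a at P90 against E8.5 (-1.61, 0.0502) lost their calls. The cause of these shifts was not tested, and leaving out arrays leaves fewer samples.

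Only differences that were not called changed sign among the 10 genes, none with an adjusted p below 0.463. For E13.5 against E8.5, quantile normalization gave 0.04 for Hif1a and 0.02 for Vhl, and leaving out the arrays of largest Actb difference gave 0.10 and 0.14. With single arrays left out, that change ran from -0.37 to 0.22 for Hif1a, -0.33 to 0.25 for Vhl and -0.22 to 0.07 for Ndufa4l2. For P90 against E13.5, the Actb setting gave -0.32 for Arnt2 and -0.55 for Egln1, and the mean of probe sets gave -0.03 for Egln1. With single arrays left out, that change ran from -0.07 to 1.81 for Arnt2 (called at its upper end), -0.58 to 0.65 for Egln1, -0.48 to 0.10 for Vhl, -0.40 to 0.13 for Vegfa and -0.02 to 0.43 for Cox4i2. For P90 against E8.5 it ran from -0.07 to 0.20 for Hif3a and from -0.40 to 0.00 for Vhl. With a pseudocount of 1, Tgfa was represented by another probe set and gave -0.42 at P90 against E13.5 and -0.81 at P90 against E8.5.

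Over all genes, 2267 were called at E13.5 against E8.5, but 1355, 1510 and 1510 without E8.5 replicate 2, E8.5 replicate 3 and E13.5 replicate 3. At P90 against E13.5, 1303 were called, but 832 with only the arrays compared and 682 without E13.5 replicate 3. At P90 against E8.5, 3209 were called, but 2089 with the Actb setting and 2057 without E8.5 replicate 2. Of 396 list counts under alternatives, 341 stayed within 1.5 times. Replicate numbers were not treated as pairs. Deviations of same-numbered arrays correlated at -0.367 to 0.385, over 0.1 in 3 of 9 pairs. Those of differently numbered arrays ran as widely. E13.5 replicate 2, for example, correlated at -0.378 with P90 replicate 1 and at 0.433 with P90 replicate 3. These values cannot show whether the samples were paired. With the replicate block, the counts of the 10 genes were 2, 0 and 3, as without it. Probe sets near the filter signal and the 8048 empty cells limit what can be said of dim genes.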
